A study of Homo sapiens with 7 samples.

Results

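The zinc finger gene clusters of human chromosome 19 were examined as 453 bins of 1 kb, out of 85087 bins measured across the genome. A bin was a member if it lay in 1 of 4 intervals of chromosome 19 (genome build hg19) that were set by position, and if it held 5 or more CpGs with 10 or more reads in all 7 libraries. These intervals were chosen with earlier results of these data known. The interval on the short arm, 19p12, gave 144 bins between 19843001 and 24217000. On the long arm, 19q13.41 gave 115 bins between 52304001 and 53980000, the proximal part of 19q13.43 gave 54 bins between 56578001 and 57277000, and its distal part gave 140 bins between 57447001 and 58993000. Each interval is named for the band that holds most of it. PEG3, an imprinted zinc finger gene, lies in the gap between the last 2 intervals and was not a member. The other 6453 bins of chromosome 19, which also include zinc finger genes, served for comparison.

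The assay was enhanced reduced representation bisulfite sequencing (ERRBS), which cuts DNA at CpG-rich sites and reads an unmethylated cytosine as T after bisulfite treatment. All libraries came from HUES8, an established line of human embryonic stem cells, taken through a monolayer cardiac differentiation with CHIR99021 (6 uM), which activates Wnt signalling, and then IWP2 (5 uM), which inhibits it. TKO cells, in which TET1, TET2 and TET3 are knocked out, were sampled as stem cells (TKO SC, day 0), cardiac mesoderm (TKO CME, day 3) and cardiac progenitors (TKO CP, day 8), and wild-type cells at the same stages (WT SC, WT CME, WT CP) and as beating cardiomyocytes (WT CM, day 14). CHIR99021 was used before the CME samples were taken and both agents before CP and CM, and the SC libraries come from day 0 of the protocol. Per the series text TKO cells do not form beating cardiomyocytes, and there is no TKO library of that stage. The title and stage label of WT CM name cardiomyocytes, while the description has day 15 and the source label has CME. Whether the TKO line was a single clone is not given in the sources used here. Levels listed without stage names below run SC, CME, CP for TKO, and SC, CME, CP, CM for WT. There was 1 library per genotype and stage, so replicate spread is unknown for every difference given, and each test compares libraries, not conditions.

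Most genes in these intervals encode proteins with an array of C2H2 zinc fingers, and many also carry a KRAB or a SCAN domain. The genes arose by tandem duplication and stand side by side. KRAB zinc finger proteins bind defined DNA sequences, many of them in retroelements, and recruit TRIM28 and the histone methyltransferase SETDB1, which leave H3K9me3 on the bound DNA. Many gene bodies of the clusters carry this mark themselves, whereas many of their promoters are CpG islands. TET enzymes oxidise 5-methylcytosine, from which unmethylated cytosine can be restored, so the comparison of TKO with WT asks where methylation depends on them. The files hold neither sequence nor expression, so neither the knockout nor the identity of the stages could be checked from marker genes.

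Total coverage, the sum of reads over the cytosines listed, lay between 120742115 (WT SC) and 213058905 (TKO CME). Over the 8354 CpGs of the intervals that all libraries shared, the median coverage came to 87 reads at SC, 87 at CME and 65 at CP in TKO, against 42 at SC and 48 at CME, and 66 at CP and 65 at CM, in WT. The bins held 7005 of these CpGs, and no member bin had under 50 reads in any library. Of the reads over 38 mitochondrial CpGs, which carry little methylation, those read as C were 0.142% at SC, 0.397% at CME and 0.139% at CP in TKO, against 1.50% at SC and 1.46% at CME, and 0.219% at CP and 0.216% at CM, in WT. Levels in WT SC and WT CME can therefore stand about this much higher through unconverted cytosine alone, and values near or below it are not read as methylation. The descriptions of WT SC and WT CME also end in a suffix that the other 5 lack. Its meaning is not given in the sources used here, and at these stages it cannot be told apart from genotype, nor, within WT, from the step between CME and CP.

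The promoters on which the results turn are shown with their sequence, 250 bases before to 50 bases after the start of the gene. The sequences are those of RefSeq (GRCh38.p14). Each was placed in the hg19 positions of the files by matching the spacing of its CpGs to the CpGs measured, and the placed positions and strands are given here. Of 1917 promoter sequences of chromosome 19, 1517 held enough CpGs to try and 937 were placed, 108 of them in the clusters, where they belong to 95 genes. Of the 94 pairs of neighbouring placed genes in the clusters, 82 stood in the order of the RefSeq table. Capitals mark the CpGs read in all 7 libraries.

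The first group holds the 3 promoters with the largest TKO CP minus WT CP difference among promoter bins under 20% in WT SC. They are ZNF347 (chr19:53662257-53662556, minus strand), a zinc finger gene of 19q13.41, its neighbour ZNF415 (chr19:53636114-53636413, minus strand) and LOC107987270 (chr19:53811782-53812081, minus strand), a locus with no assigned function. ZNF816 (chr19:53466085-53466384, minus strand), from the same interval, is shown beside them as 1 of the 3 with the smallest difference.
ZNF347: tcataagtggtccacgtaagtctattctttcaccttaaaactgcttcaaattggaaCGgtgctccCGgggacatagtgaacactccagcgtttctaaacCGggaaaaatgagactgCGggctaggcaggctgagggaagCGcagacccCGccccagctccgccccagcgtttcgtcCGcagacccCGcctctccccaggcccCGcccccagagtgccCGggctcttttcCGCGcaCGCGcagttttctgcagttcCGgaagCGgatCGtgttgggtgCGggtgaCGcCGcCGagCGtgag
ZNF415: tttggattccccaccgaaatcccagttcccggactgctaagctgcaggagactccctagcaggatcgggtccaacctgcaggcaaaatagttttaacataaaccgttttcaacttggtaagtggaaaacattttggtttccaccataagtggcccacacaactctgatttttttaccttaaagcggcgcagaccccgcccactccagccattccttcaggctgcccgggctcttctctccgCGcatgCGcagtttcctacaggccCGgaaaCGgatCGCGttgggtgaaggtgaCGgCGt
LOC107987270: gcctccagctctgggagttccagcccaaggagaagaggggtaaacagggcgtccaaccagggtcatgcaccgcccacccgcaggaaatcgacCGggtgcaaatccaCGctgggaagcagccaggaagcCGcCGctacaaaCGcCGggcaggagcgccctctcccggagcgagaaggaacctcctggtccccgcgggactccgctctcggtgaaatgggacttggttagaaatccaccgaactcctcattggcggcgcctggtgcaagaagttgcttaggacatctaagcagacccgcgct
ZNF816: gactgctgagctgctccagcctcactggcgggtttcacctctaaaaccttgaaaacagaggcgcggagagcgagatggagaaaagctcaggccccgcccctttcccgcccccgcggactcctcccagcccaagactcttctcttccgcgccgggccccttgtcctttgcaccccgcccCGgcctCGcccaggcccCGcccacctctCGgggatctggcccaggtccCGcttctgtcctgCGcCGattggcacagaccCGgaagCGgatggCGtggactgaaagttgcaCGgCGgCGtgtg

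A further 3 were chosen after their values were seen, because they stood at 20 to 80% in WT SC and under 20% in TKO SC. ZSCAN5A (chr19:56825882-56826181, minus strand) encodes a SCAN domain zinc finger protein, ZNF582 (chr19:56904854-56905153, minus strand) is a KRAB zinc finger gene whose promoter is known to be methylated in carcinomas, and ZNF880 (chr19:52872926-52873225, plus strand) is a KRAB zinc finger gene.
ZSCAN5A: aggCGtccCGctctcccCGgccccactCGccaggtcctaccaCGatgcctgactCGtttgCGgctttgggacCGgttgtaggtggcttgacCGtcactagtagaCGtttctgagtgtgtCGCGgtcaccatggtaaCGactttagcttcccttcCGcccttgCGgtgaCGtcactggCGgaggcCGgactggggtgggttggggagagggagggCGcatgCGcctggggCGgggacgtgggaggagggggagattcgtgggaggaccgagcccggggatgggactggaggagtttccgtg
ZNF582: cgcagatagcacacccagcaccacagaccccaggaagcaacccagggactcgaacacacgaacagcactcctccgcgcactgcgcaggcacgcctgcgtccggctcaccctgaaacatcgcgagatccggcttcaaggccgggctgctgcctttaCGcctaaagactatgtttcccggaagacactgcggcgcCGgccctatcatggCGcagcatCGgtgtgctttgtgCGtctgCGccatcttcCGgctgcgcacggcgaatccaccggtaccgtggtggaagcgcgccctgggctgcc
ZNF880: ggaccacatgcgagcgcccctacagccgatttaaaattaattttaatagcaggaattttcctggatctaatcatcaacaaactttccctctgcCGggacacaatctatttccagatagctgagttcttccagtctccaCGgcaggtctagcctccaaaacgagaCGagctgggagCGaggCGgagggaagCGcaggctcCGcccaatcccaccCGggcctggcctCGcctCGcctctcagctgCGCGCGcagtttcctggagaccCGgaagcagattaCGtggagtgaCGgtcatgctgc

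The ZNF347, ZSCAN5A and ZNF880 windows hold 27, 26 and 20 CpGs, of which most, 22, 21 and 16, were read in all libraries. Promoter levels below are those of whole 1 kb bins unless a window is named. A bin can also hold CpGs outside the printed sequence. Those of ZNF415, LOC107987270 and ZNF582 hold 17, 22 and 30 CpGs, of which 8, 6 and 7 were read in all libraries.

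Taken over their 453 bins, the clusters showed little of the mean excess of TKO over WT that the rest of chromosome 19 had. The mean level of the 453 bins came to 54.1% at SC, 54.4% at CME and 56.3% at CP in TKO, against 55.0% at SC and 55.8% at CME, and 54.0% at CP and 54.3% at CM, in WT. In the rest of chromosome 19 the same stages gave 63.6%, 64.0% and 67.1% in TKO, against 60.4%, 61.4%, 56.8% and 57.4% in WT. TKO thus stood below WT in the clusters at SC and CME and 2.31 points above it at CP, where the rest of chromosome 19 had a mean difference of 10.2 points. The median difference in the clusters stood at -1.27 points at SC, -1.57 at CME and 0.03 at CP. In the rest of chromosome 19 it was -0.97, -1.05 and 2.16, and over all bins -0.93, -1.04 and 1.30. Corrected for unconverted cytosine, the mean of the clusters was 54.6% in WT SC and 55.4% in WT CME, still above TKO. From CME to CP the mean change in the rest of chromosome 19 was -4.52 points in WT and 3.06 in TKO. In the clusters it was -1.74 points in WT and 1.92 in TKO. The larger gap at CP in the rest thus came with a lower WT level as well as a higher TKO level.

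The intervals differed among themselves in level. 19p12 stood at 63.5%, 63.5% and 65.7% in TKO, against 66.4%, 66.9%, 64.8% and 64.9% in WT. The proximal part of 19q13.43 was as high, at 64.8%, 65.5% and 66.7% in TKO, against 69.2%, 70.1%, 66.5% and 67.2% in WT. 19q13.41 was lower, at 47.3%, 48.3% and 51.2% in TKO, against 45.0%, 46.2%, 45.5% and 46.0% in WT, and it was the interval in which TKO stood above WT at all 3 stages. Distal 19q13.43 stood at 46.1%, 45.9% and 46.9% in TKO, against 46.1%, 46.7%, 45.2% and 45.2% in WT.

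A bin was called higher or lower when Fisher's exact test on its reads (two-sided) gave a Benjamini-Hochberg adjusted p below 0.01 over all 85087 bins and the levels differed by 25 percentage points or more. At SC, 13 cluster bins (2.87%) were called higher in TKO and 11 (2.43%) lower, where 6.26% and 0.119% of all bins were. At CME, 14 bins were called higher in TKO and 10 lower, against 6.02% and 0.0846% of all bins. At CP, 28 (6.18%) were called higher in TKO and 7 (1.55%) lower, against 12.0% and 0.0458% of all bins. Higher bins were thus a smaller share of the clusters than of all bins, and lower bins a larger one, at each stage. The rest of chromosome 19 had 490 higher and 7 lower at SC, 454 and 3 at CME, and 936 and 2 at CP. The clusters hold 0.532% of all bins, 10.9% of the bins lower in TKO at SC, 13.9% at CME and 17.9% at CP. No test was made of these shares, because the clusters were picked with earlier results of these data known.

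**Figure D1:**
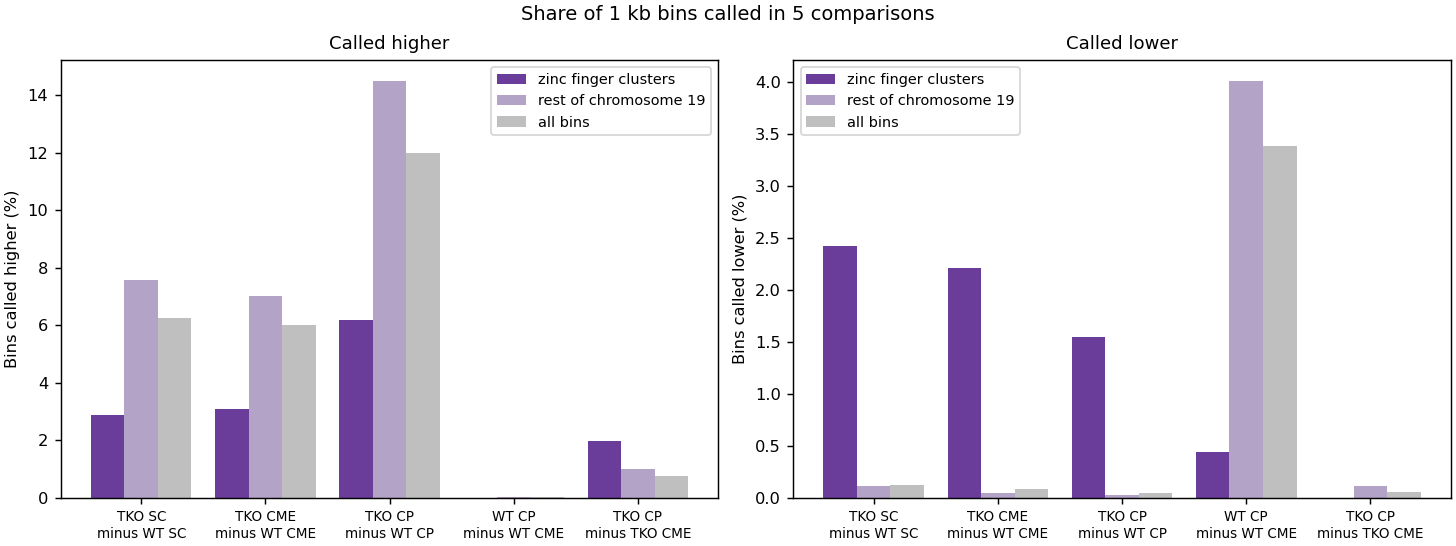
Share of 1 kb bins called higher (left) and lower (right) in 5 comparisons of libraries, as a percentage of the 453 cluster bins, the 6453 other bins of chromosome 19 and all 85087 bins. The purple bars for TKO minus WT are shorter than the other bars on the left and longer on the right, where they stand at 2.43%, 2.21% and 1.55%.

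Of the 453 bins, 38 were called between the genotypes at 1 stage or more, 28 as higher and 11 as lower, with the ZNF880 promoter bin in both counts. Another 414 bins were called in none of the 10 pairs of libraries compared. Among all 85087 bins, 10517 were higher and 136 lower at 1 stage or more. Of the cluster bins higher in TKO, 13 were higher at all 3 stages, against 4645 bins in the genome and 412 in the rest of chromosome 19. Of those lower, 7 were lower at all 3 stages, out of 21 such bins in the genome and 1 in the rest of chromosome 19. In a linear model of genotype plus stage over the 6 libraries of these stages (limma, 2 residual degrees of freedom), 12 cluster bins were higher in TKO (4.36% of all bins were) and 7 lower (0.0200% of all bins were), at a mean difference of 25 points or more. All 12 and all 7 were among those called at every stage, and the adjusted p of the 7 lay between 0.000287 and 0.00732 (limma). The stages in this model are not replicate cultures.

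**Figure D2:**
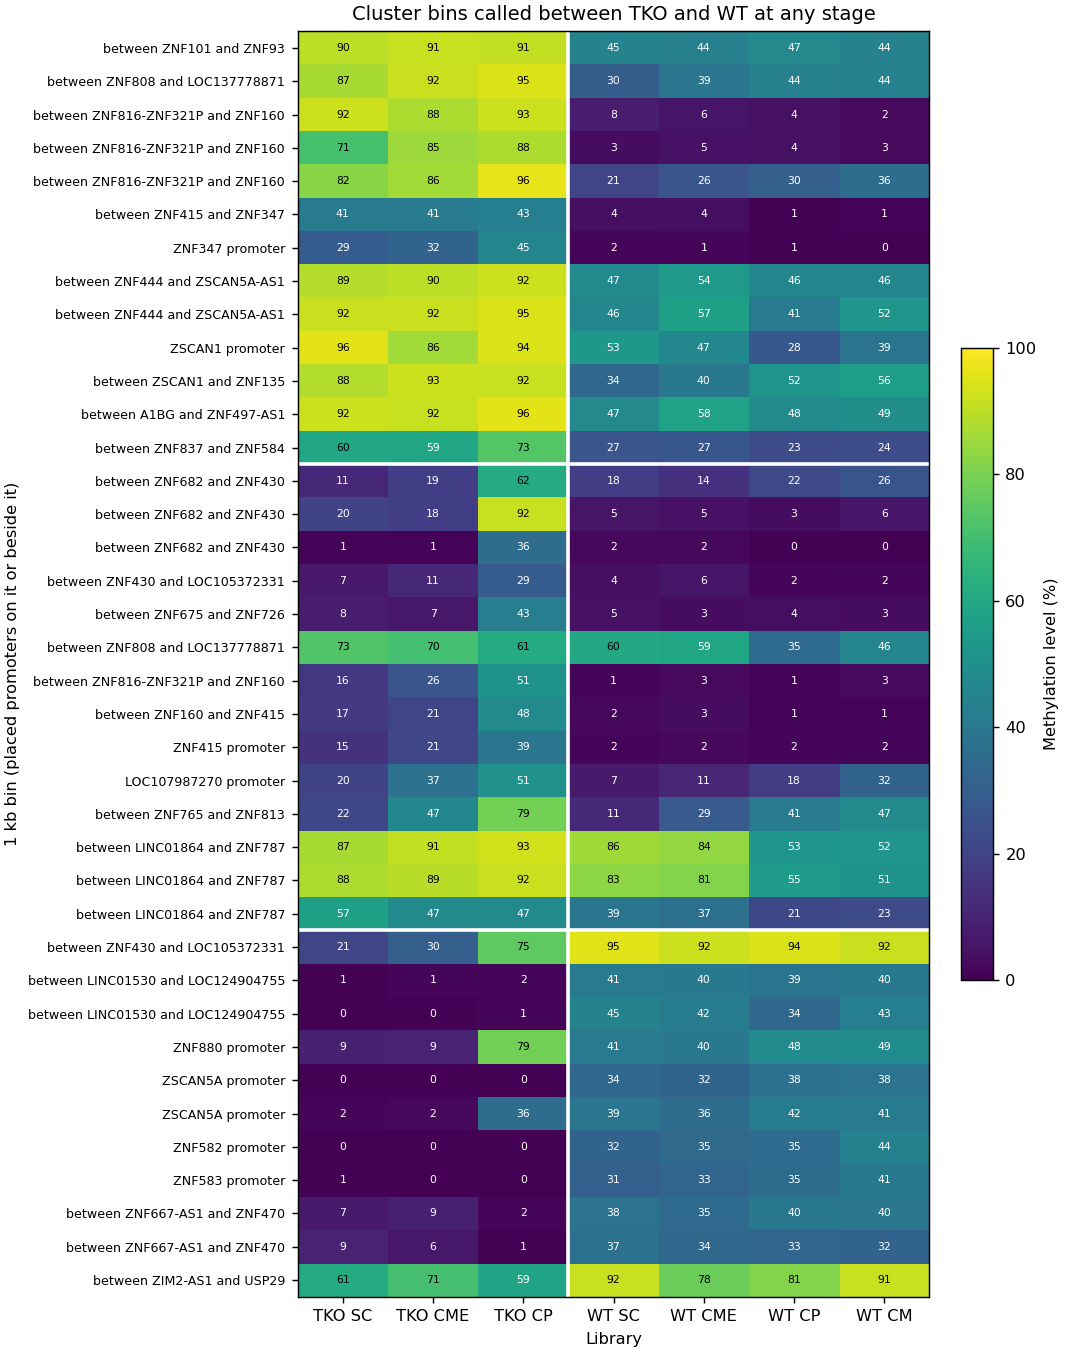
Methylation level (%) of the 38 cluster bins called between TKO and WT at any stage, with 1 row per bin and 1 column per library, TKO at the left. The top block is higher in TKO at all 3 stages, the middle block is higher at CP and not at SC, and the bottom block is lower at SC; a row with no promoter of its own is named by the nearest placed promoters.

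In most of the lower bins the WT libraries were intermediate and the TKO libraries close to unmethylated. The 7 that were lower at all stages lay between 0.216% and 9.40% at SC, between 0.286% and 8.81% at CME and between 0 and 1.93% at CP in TKO, against 30.7% to 44.6% at SC and 32.3% to 41.8% at CME, and 32.7% to 40.2% at CP and 31.7% to 44.1% at CM, in WT. No TKO level overlapped a WT level. Of the 11 bins lower at SC, 6 lay in proximal 19q13.43 within 225 kb, between 56826001 and 57051000. This span holds 8 member bins, and it was singled out after its values were seen.

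At the ZSCAN5A promoter bin (29 CpGs), 0.222% of 4049 reads were methylated in TKO SC, 0.317% of 4103 in TKO CME and 0 of 2393 in TKO CP, against 33.7% of 1374 reads at SC and 32.3% of 1540 at CME, and 37.7% of 2392 at CP and 38.2% of 2126 at CM, in WT. The 0 reads in TKO CP allow a level of up to 0.125% (3 reads) and have a 95% Wilson upper limit of 0.160%, both for counting error only. TKO minus WT came to -33.5 points at SC, -32.0 at CME and -37.7 at CP. At the bin of the ZNF582 promoter (24 CpGs), which also holds the start of its divergent transcript ZNF582-DT, the level came to 0.216% at SC, 0.367% at CME and 0.468% at CP in TKO, against 31.7% at SC and 34.7% at CME, and 35.0% at CP and 44.1% at CM, in WT. The bin of ZNF583, the next zinc finger gene, had 54 CpGs and stood at 0.663%, 0.286% and 0.347% in TKO, against 30.7%, 32.7%, 35.2% and 40.5% in WT. In all 3 of these 1 kb bins every TKO library was below 1% and every WT library above 30%.

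Single CpGs showed the same picture as the bins. In the ZNF583 bin, 50 of the 54 CpGs lay at 20 to 80% in WT SC and the other 4 below 20%, and none was above 80%. In TKO SC the highest of the 54 CpGs was at 7.59%. Across the ZNF582 bin the CpGs ranged from 0 to 2.07% in TKO SC, against 22.1% to 45.3% in WT SC, and across the ZSCAN5A bin from 0 to 2.03% in TKO SC, against 22.6% to 50.0% in WT SC. The intermediate WT level was thus spread over the CpGs and was not a mix of high and low sites along the bin. The data are levels per CpG, so methylation of single molecules or of the 2 alleles could not be read.

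**Figure D3:**
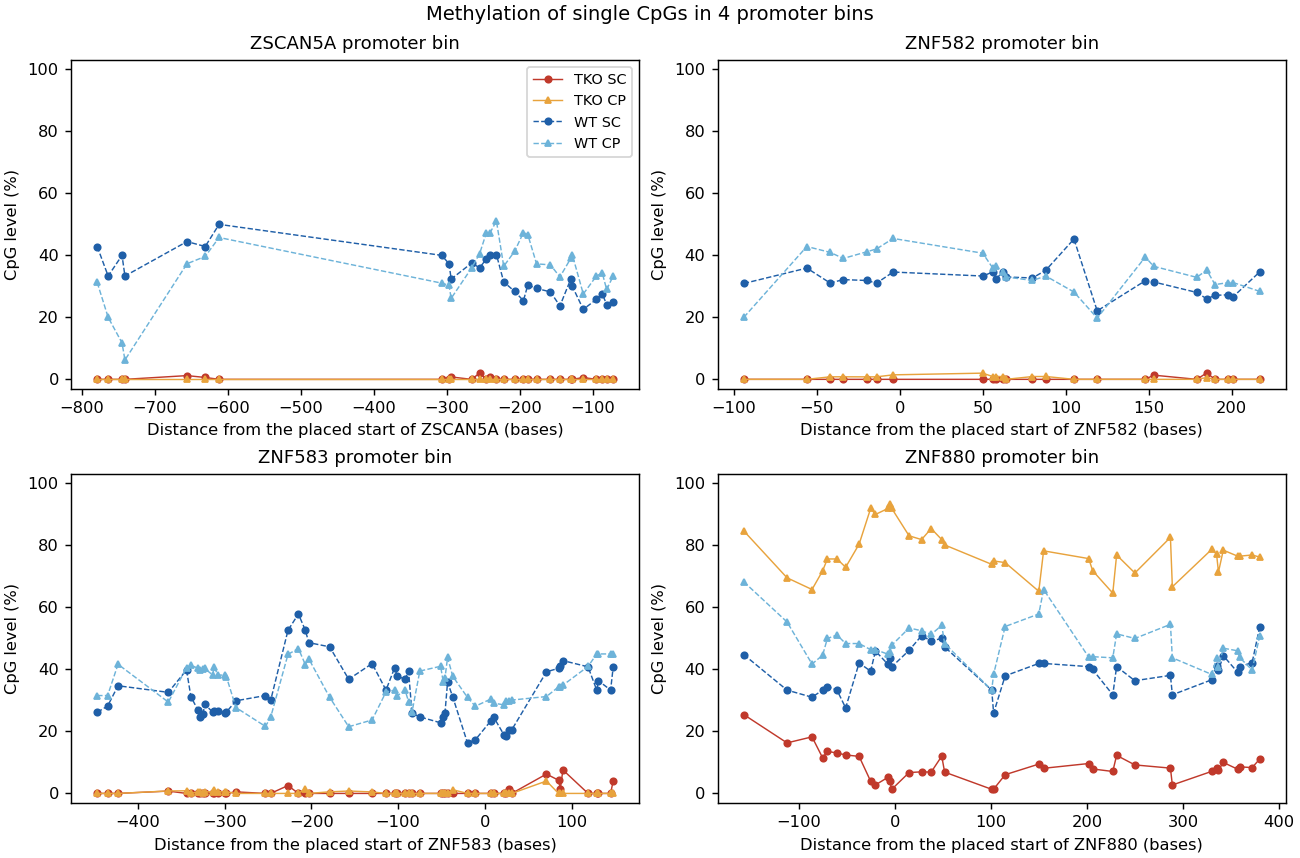
Methylation level (%) of each CpG in the promoter bins of ZSCAN5A, ZNF582, ZNF583 and ZNF880 against its distance in bases from the placed gene start, in TKO SC, TKO CP, WT SC and WT CP. In the first 3 panels both TKO lines run along 0 below the WT lines, and in the ZNF880 panel TKO SC lies below both WT lines and TKO CP above them.

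Between ZNF583 and ZNF470, the same span holds the ZNF667 promoter, which did not share this pattern. ZNF667 is a zinc finger gene whose promoter is known to be methylated in tumours. Its bin stood at 93.9%, 90.1% and 91.5% in TKO, against 93.3%, 96.0%, 93.4% and 91.6% in WT, and the bin next to it also passed no call. Beyond it, a pair of adjacent bins from 57049001 to 57051000 stood at 7.32%, 8.81% and 1.50% and at 9.40%, 6.27% and 0.574% in TKO, against 37.9%, 35.1%, 40.2% and 39.7% and against 37.3%, 33.5%, 32.7% and 31.7% in WT. They hold 28 and 49 CpGs. No promoter was placed on them, and the RefSeq table lists ZNF471 and ZFP28, both zinc finger genes, between their placed neighbours. In 19q13.41, another pair of adjacent bins, from 52407001 to 52409000, stood at 0.607%, 1.36% and 1.93% and at 0.271%, 0.498% and 1.49% in TKO, against 41.1%, 40.4%, 39.0% and 40.3% and against 44.6%, 41.8%, 33.5% and 43.2% in WT. Its placed neighbours are LINC01530 and LOC124904755, and the genes listed between them include ZNF577, ZNF649, ZNF613 and ZNF350.

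The other 4 bins lower at SC were not called lower at CP. At the ZNF880 promoter bin (38 CpGs) the level was 9.15% of 5946 reads at SC, 9.43% of 4974 at CME and 78.6% of 2693 at CP in TKO, against 41.3% of 1966 reads at SC and 40.0% of 2414 at CME, and 48.3% of 3233 at CP and 48.8% of 2717 at CM, in WT. TKO minus WT came to -32.2 points at SC, -30.6 at CME and 30.4 at CP. It was the only one of the 453 bins called in both directions. A promoter bin of ZSCAN5A at another start (56879001 to 56880000, 20 CpGs) stood at 1.56%, 2.05% and 35.9% in TKO, against 39.1%, 35.8%, 42.3% and 41.2% in WT, and TKO minus WT was -6.34 points at CP. In 19p12, a bin of 25 CpGs between the placed promoters of ZNF430 and LOC105372331 (21657001 to 21658000) stood at 20.8%, 30.4% and 75.2% in TKO, against 95.1%, 92.5%, 94.2% and 91.8% in WT. It had the largest loss of the clusters, -74.3 points at SC, and was the only one of the 11 above 80% in all 4 WT libraries. The remaining bin, in distal 19q13.43 (57611001 to 57612000, 5 CpGs), lies near USP29, a paternally expressed gene of the PEG3 domain, and stood at 61.3% of 238 reads, 70.7% of 174 and 58.6% of 70 in TKO, against 91.7% of 157, 77.6% of 107, 81.4% of 102 and 91.4% of 105 in WT. Its 95% Wilson intervals overlap between TKO CME (63.5% to 76.9%) and WT CME (68.8% to 84.4%).

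**Figure D4:**
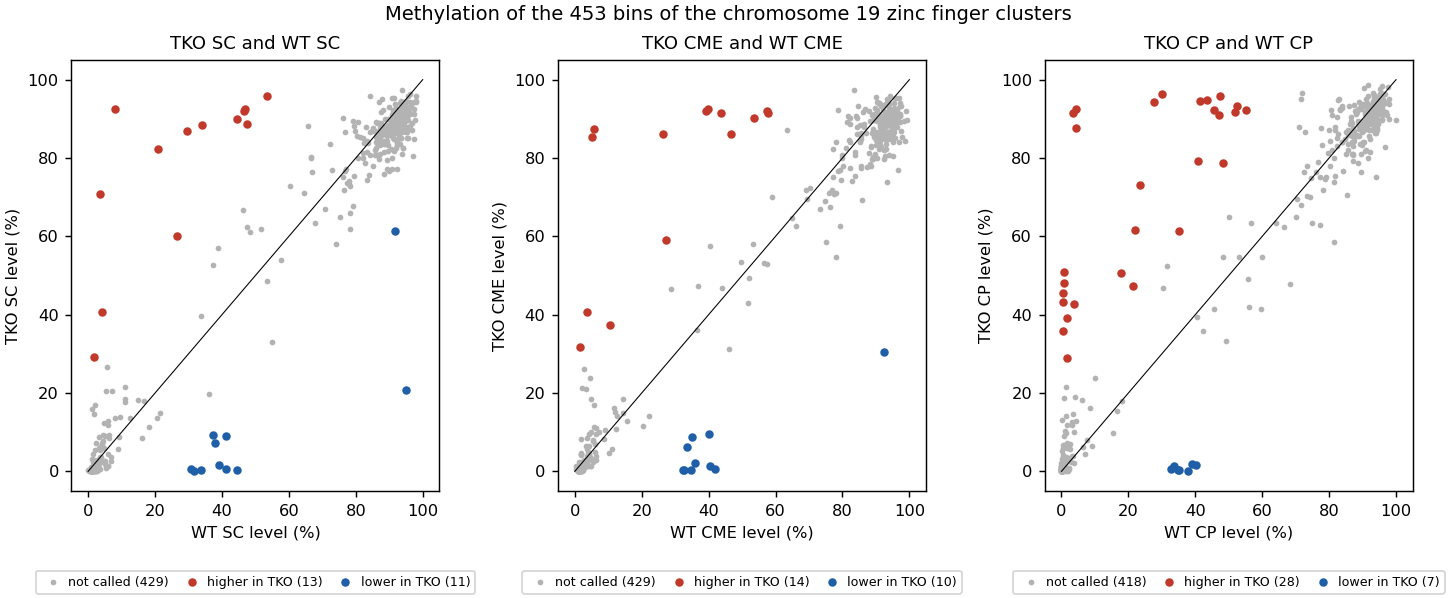
Methylation level (%) of the 453 cluster bins in TKO (vertical axis) against WT (horizontal axis) at SC, CME and CP, with bins called higher in TKO in red, lower in blue and not called in grey. Bins intermediate in WT lie both near the top and near the bottom of the panels, and at CP further red points stand above WT levels near 0.

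The 13 bins higher in TKO at all stages had a median of 88.5% at SC, 87.5% at CME and 92.3% at CP in TKO, against 29.6% at SC and 39.1% at CME, and 30.2% at CP and 38.5% at CM, in WT. Several of them were the mirror image of the lower bins, at intermediate levels in WT and near full methylation in TKO. In 19p12, the bin from 19932001 to 19933000 (19 CpGs, between ZNF101 and ZNF93) stood at 90.0%, 91.5% and 90.9% in TKO, against 44.6%, 43.6%, 47.0% and 44.3% in WT. All 19 of its CpGs were over 80% in TKO SC, and all 19 were at 20 to 80% in WT SC. In proximal 19q13.43, the adjacent bins from 56728001 to 56730000 (40 and 25 CpGs, between ZNF444 and ZSCAN5A-AS1) stood at 88.8% and 92.0% in TKO SC and at 92.3% and 94.6% in TKO CP, against 47.5% and 46.5% in WT SC and 45.7% and 41.5% in WT CP. Distal 19q13.43 had 4, of which 3 were of this kind. The bin with the placed start of ZSCAN1, a SCAN domain zinc finger gene, stood at 95.9%, 86.2% and 94.2% in TKO, against 53.5%, 46.6%, 27.6% and 38.5% in WT. The bin between ZSCAN1 and ZNF135 (58554001 to 58555000) was at 88.5%, 92.6% and 91.8% in TKO, against 33.9%, 39.9%, 51.8% and 56.0% in WT. That between A1BG, which encodes a plasma glycoprotein, and ZNF497-AS1 (58867001 to 58868000, 42 CpGs) was at 92.5%, 91.6% and 95.8% in TKO, against 47.0%, 57.7%, 47.5% and 49.4% in WT. The remaining one, between ZNF837 and ZNF584 (58912001 to 58913000), lay between 59.0% and 73.2% in the TKO libraries, against 23.4% to 27.2% in those of WT.

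In 19q13.41, 4 of the bins higher at all stages lay away from placed promoters. The bins from 53541001 to 53542000 (9 CpGs) and from 53561001 to 53562000 (7 CpGs) had the largest gains of the clusters at SC and CME, and both were under 10% in all WT libraries. The one stood at 92.5% of 706 reads at SC, 87.5% of 513 at CME and 92.6% of 390 at CP in TKO, against 7.94% of 441 at SC and 5.65% of 478 at CME, and 4.33% of 323 at CP and 2.34% of 384 at CM, in WT. The other stood at 70.8%, 85.3% and 87.7% in TKO, against 3.47%, 5.00%, 4.43% and 2.64% in WT. Both lie between the placed promoters of ZNF816-ZNF321P and ZNF160, an interval in which the RefSeq table lists ERVV-1 and ERVV-2, a pair of genes derived from the envelope of endogenous retroviruses. The distance of these genes from the bins was not read, and whether the bins hold retroviral sequence was not tested. In the same interval, the bin from 53598001 to 53599000 stood at 82.4%, 86.1% and 96.5% in TKO, against 20.9%, 26.4%, 30.2% and 36.1% in WT. Its 8 CpGs differed among themselves in WT SC, from 2.50% to 61.5%, and its calls rest on 1 strand. TKO minus WT was 67.6, 67.5 and 74.2 points on the minus strand at SC, CME and CP, and 17.5, -1.42 and 13.6 points on the plus strand. A bin of 21 CpGs between ZNF808 and LOC137778871 (53088001 to 53089000) stood at 86.9%, 92.0% and 94.7% in TKO, against 29.6%, 39.1%, 43.6% and 44.4% in WT.

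ZNF347, whose promoter is printed above, had the largest gain among promoter bins that were under 20% in WT SC. Its bin (30 CpGs) stood at 29.2% of 3763 reads at SC, 31.7% of 3011 at CME and 45.4% of 2290 at CP in TKO, against 1.63% of 2207 at SC and 1.49% of 2543 at CME, and 0.508% of 3148 at CP and 0.187% of 2137 at CM, in WT. The adjacent bin downstream (37 CpGs) stood at 40.6%, 40.7% and 43.3% in TKO, against 4.16%, 3.77%, 0.607% and 1.09% in WT. TKO stopped short of full methylation here, and 36 of the 37 CpGs of that bin lay at 20 to 80% in TKO SC and in TKO CME. Its neighbour ZNF415, a tumour-methylated zinc finger gene, was lower than ZNF347 in TKO SC and CME. The bin of its promoter (11 CpGs) stood at 14.7%, 21.2% and 39.2% in TKO, against 1.70%, 2.10%, 1.56% and 1.58% in WT, and the adjacent bin (22 CpGs) at 16.9%, 21.1% and 48.0% in TKO, against 1.99%, 3.21%, 0.797% and 1.06% in WT. Both passed the call at CP alone. The ZNF816 promoter bin, in the same interval, stood at 0.181%, 0.230% and 0.205% in TKO, against 1.05%, 1.37%, 0.202% and 0.156% in WT.

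Of the 28 bins higher in TKO CP, 13 were also higher at SC, ZNF880 was lower there, and 14 were not called at SC, of which 13 were called at neither earlier stage. In 19p12, 5 bins stood at 26.0% or below in WT and were called higher at CP, and together with the bin near ZNF101 they make up the 6 called there. The most marked, from 20748001 to 20749000 (14 CpGs, between ZNF682 and ZNF430), stood at 20.5% of 1579 reads at SC, 18.4% of 1378 at CME and 91.5% of 624 at CP in TKO, against 5.44% of 698 at SC and 4.84% of 805 at CME, and 3.34% of 1169 at CP and 6.23% of 754 at CM, in WT. Another between the same promoters (20959001 to 20960000, 19 CpGs) stood at 1.11%, 0.844% and 35.8% in TKO, against 2.29%, 2.28%, 0.426% and 0.0882% in WT. The bin from 23941001 to 23942000, between ZNF675 and ZNF726, stood at 7.74%, 6.58% and 42.8% in TKO, against 4.55%, 3.33%, 3.66% and 3.30% in WT. The other 2 reached less or started higher. The bin from 21769001 to 21770000 (42 CpGs) stood at 6.99%, 11.3% and 29.0% in TKO, against 4.26%, 5.73%, 1.68% and 1.95% in WT, and that from 20349001 to 20350000 (6 CpGs) at 11.3%, 18.6% and 61.6% in TKO, against 18.2%, 14.3%, 22.1% and 26.0% in WT. In 19q13.41, a bin of 11 CpGs (53496001 to 53497000) stood at 16.0%, 26.2% and 51.0% in TKO, against 1.27%, 2.64%, 0.856% and 2.96% in WT, but its CpGs were divided, with 4 over 80% and 6 under 20% in TKO CP. A bin of 6 CpGs between ZNF808 and LOC137778871 (53040001 to 53041000) passed the call only at CP, at 72.8%, 70.0% and 61.4% in TKO, against 60.4%, 58.9%, 35.1% and 45.6% in WT.

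Among these, a pair of 19q13.41 bins had levels that were higher at each later stage in both genotypes. The bin between ZNF765 and ZNF813 (53966001 to 53967000, 17 CpGs) stood at 21.6%, 46.5% and 79.2% in TKO, and at 11.0%, 28.7%, 40.7% and 47.3% in WT. At the LOC107987270 promoter (6 CpGs) the levels were 20.5%, 37.4% and 50.7% in TKO, and 7.05%, 10.6%, 17.9% and 32.0% in WT. TKO was above WT at each shared stage in both bins.

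In a pair of bins of proximal 19q13.43, the call at CP came with a lower level in WT. They lie between LINC01864 and ZNF787, at 56618001 to 56619000 and 56625001 to 56626000, with 7 CpGs each. The TKO levels were 86.9%, 90.8% and 93.2% in the one and 87.9%, 89.1% and 92.1% in the other. In WT they stood at 85.6%, 84.0%, 52.5% and 52.1% and at 83.1%, 81.3%, 55.2% and 50.8%. Another bin of this stretch, next to the ZNF787 promoter (56631001 to 56632000), stood at 57.0%, 47.4% and 47.4% in TKO, against 38.8%, 36.8%, 21.5% and 23.2% in WT.

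Stages were also compared within each genotype. Between WT CME and WT SC 0 bins were called (0.0282% of all bins were higher and 0.0118% lower), although 14 were higher when the adjusted p was the only criterion. By that criterion 2451 of all 85087 bins were higher and 269 lower. Between WT CP and WT CME, 0 were higher and 2 (0.442%) were lower, the pair named above, against 0.0294% and 3.38% of all bins. The rest of chromosome 19 had 259 lower (4.01%). On the adjusted p only, 155 of the 453 cluster bins were lower and 15 higher, against 38321 and 1487 of all 85087 bins. The clusters had a median difference of -1.38 points, and all bins one of -1.71. Between WT CM and WT CP 0 were called (0.0306% and 0.0223% of all bins were). The adjusted p only gave 10 higher and 8 lower, against 3951 and 1223 of all bins. Between WT CM and WT SC 1 was higher, the bin between ZNF765 and ZNF813, and the same 2 were lower, against 0.126% and 2.81% of all bins. Here the adjusted p only gave 26 higher and 130 lower, against 3579 and 31410 of all bins. Drops of 25 points or more at CP in WT were thus a smaller share of the cluster bins than of all bins. Many small differences passed the adjusted p in the clusters and in all bins alike, and WT CP and WT CME also differ in the suffix of their descriptions. Unconverted mitochondrial cytosine was 1.50% in WT SC and 1.46% in WT CME, against 0.219% in WT CP and 0.216% in WT CM. Falls of about this size from the earlier to the later WT stages are therefore not read as loss of methylation. In TKO, 0 bins were called between CME and SC (0.0223% of all bins were higher and 0.0188% lower). The adjusted p only gave 39 higher and 26 lower, against 8986 and 5858 of all bins. Between TKO CP and TKO CME 9 (1.99%) were higher and 0 lower, against 0.772% and 0.0599% of all bins, and 65 (1.01%) and 7 in the rest of chromosome 19. Between TKO CP and TKO SC 12 (2.65%) were higher and 0 lower, against 1.08% and 0.0693% of all bins, and 88 (1.36%) and 11 in the rest of chromosome 19. Higher calls were thus a larger share of the clusters than of all bins in both comparisons. The largest of the 9 were the bin between ZNF682 and ZNF430, the ZNF880 promoter and the bin between ZNF430 and LOC105372331. One of the 12, between ZNF837 and ZNF584 (58908001 to 58909000, 46 CpGs), was called in no comparison of genotypes, at 19.9%, 31.3% and 52.5% in TKO, against 36.3%, 46.0%, 31.5% and 30.7% in WT.

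Whether TKO minus WT changed with stage was asked bin by bin with a z test that compares the differences of 2 stages, under the same call rule. In 13 cluster bins TKO minus WT was larger at CP than it was at SC and in 2 it was smaller, against 5.67% and 0.108% of all bins. Between CP and CME it was larger in 13 and smaller in 1, against 5.67% and 0.0588% of all bins, and between CME and SC 0 differed (0.0259% and 0.0470% of all bins did). All 13 larger ones were also called in TKO CP minus TKO SC or in WT CM minus WT SC. The 2 smaller ones, which no comparison of genotypes called, were at 41.5% and 41.9% in TKO CP, against 59.7% and 55.9% in WT CP.

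Grouped by their level in WT SC (under 20%, 20 to 80% or over 80%), the clusters and the rest of chromosome 19 had different calls. Levels within these groups and CpG numbers were not matched between the sets. Of the 60 cluster bins at 20 to 80% in WT SC, 9 were higher and 9 lower in TKO SC, and 12 were higher and 7 lower in TKO CP. In the rest of chromosome 19, 1014 bins started at this level, of which 238 were higher and 7 lower at SC, and 464 higher and 1 lower at CP. The median difference of these bins at CP was 0.33 points in the clusters and 22.6 points in the rest of chromosome 19. Of the 162 cluster bins under 20% in WT SC, 4 (2.47%) were higher at SC and 14 (8.64%) at CP, against 252 and 328 (17.5%) of 1869 in the rest of chromosome 19. All bins of this level had 10.2% and 13.1% higher. Of the 231 over 80%, 0 were higher and 2 lower at SC, against 0 and 0 of 3570. At CP 2 were higher and 0 lower, against 144 and 1 of 3570. All bins of this level had 0 higher and 0.0621% lower at SC, and 3.82% and 0.0333% at CP. By CpG number, 0 of the 7 bins lower at CP had 5 to 9 CpGs, as 205 of the 453 bins did. Of these 7, 2 had 10 to 19 CpGs, 3 had 20 to 39 and 2 had 40 or more, classes that hold 132, 85 and 31 bins.

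Bins that held an intermediate level throughout WT were looked at separately, by a rule chosen after the values were seen. In 29 cluster bins (6.40%) all 4 WT libraries stood at 20 to 60%, as in 225 bins (3.49%) of the rest of chromosome 19 and 2166 (2.55%) of all bins. Of the 29, 10 were under 20%, 11 between 20 and 80% and 8 over 80% in TKO SC, and 7, 14 and 8 were in TKO CP. Of the 225 in the rest of chromosome 19, 8 were under 20%, 152 between and 65 over 80% in TKO SC, and 1, 136 and 88 were in TKO CP. In the clusters such bins were thus found at either end in TKO, while in the rest of chromosome 19 those that left the middle range were mostly high. Among the 11 that stayed between in TKO SC was the bin of ZNF132, a tumour-methylated zinc finger gene, at 61.9%, 53.2% and 64.8% in TKO, against 51.6%, 56.5%, 50.2% and 45.6% in WT.

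**Figure D5:**
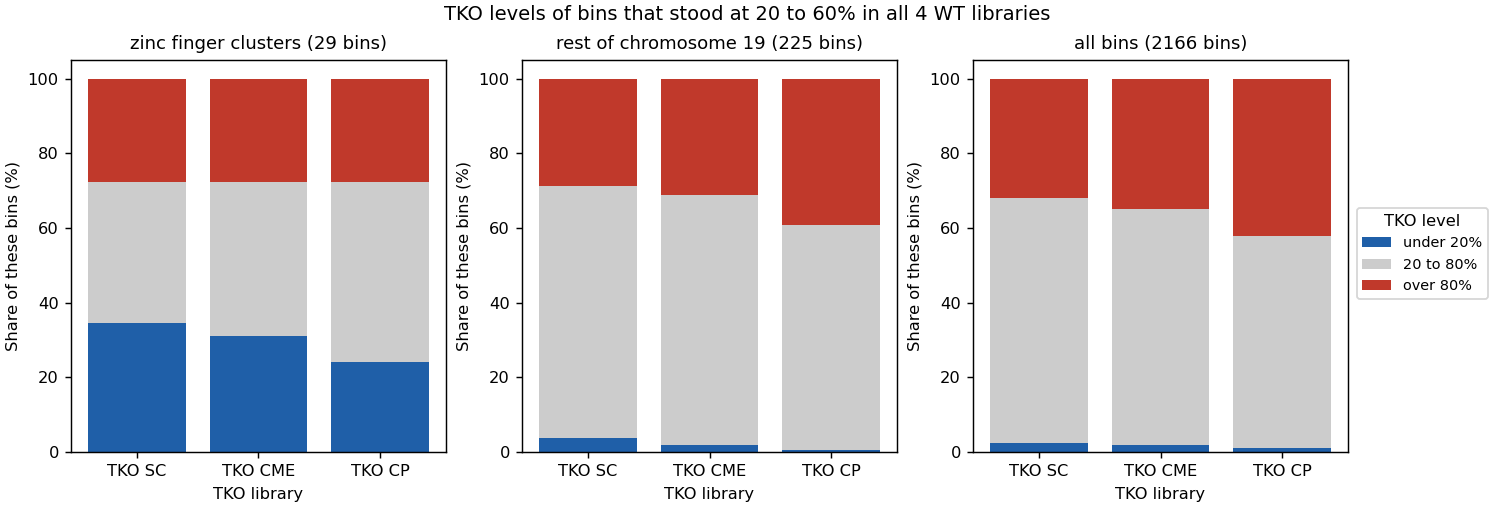
TKO levels of the bins at 20 to 60% in all 4 WT libraries, as the share (%) of these bins under 20%, at 20 to 80% and over 80% in each TKO library, for the 29 cluster bins, 225 other bins of chromosome 19 and 2166 bins in all. The blue part, under 20%, takes 34.5%, 31.0% and 24.1% of the cluster bins and at most 3.56% of the other sets.

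Promoters were read in 86 bins that held a placed window, of which 2 were higher and 5 lower in TKO SC, 3 and 5 in TKO CME, and 5 and 3 in TKO CP. Of all bins, 6.26% were higher and 0.119% lower at SC, 6.02% and 0.0846% at CME, and 12.0% and 0.0458% at CP. Over the 95 placed windows with 5 or more CpGs read in all libraries, which belong to 85 genes, 68 were under 20%, 12 at 20 to 80% and 15 over 80% in WT SC. In TKO SC these numbers were 76, 2 and 17. Of the 12 intermediate windows, 10 were under 20% in TKO SC, those of ZSCAN5A, ZSCAN5A-AS1, LOC105372468, ZNF582, ZNF582-DT, ZNF583 and ZNF880, and 2 were over 80%, those of ZSCAN1 and LOC124904780. Windows of neighbouring starts share CpGs, so these 12 are not independent. LOC124904780 has no assigned function, and its window (6 CpGs) stood at 93.8%, 78.1% and 56.7% in TKO, against 61.8%, 48.3%, 40.2% and 40.2% in WT. The windows that started low mostly stayed low, with 66 of 68 under 20% in TKO SC and 65 in TKO CP. The exceptions were ZNF347 and LOC107987270 in TKO SC, and ZNF347, LOC107987270 and ZNF415 in TKO CP.

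Named gene lists were small once limited to promoters placed on member bins, and a listed gene outside the 4 intervals could have no such bin. Of 16 zinc finger genes whose promoters are known to be methylated in tumours, 8 had a measured promoter bin, 9 bins in all, of which ZNF582 was lower in TKO at all stages and ZNF415 higher at CP. The other 7 bins passed no call, among them ZNF667 at the high end and ZNF135, at 5.61%, 8.63% and 5.80% in TKO, against 3.12%, 3.56%, 2.60% and 2.46% in WT, at the low end. The median difference over the 9 was 0.34 points at SC, -0.82 at CME and 0.38 at CP, where that of all bins was -0.93, -1.04 and 1.30. ZNF471, ZFP28 and ZNF577 of this list had no such bin, and they are listed between the placed neighbours of bins lower in TKO. Of 24 zinc finger genes known to bind or silence retroelements, imprinted loci or other zinc finger genes, 10 had a bin, and 0 of 11 bins were called between the genotypes at any stage, with medians of -0.97 points at SC, -0.83 at CME and 0.02 at CP. With 6.26%, 6.02% and 12.0% of all bins higher and at most 0.119% lower, 0 calls among so few bins say little about a list. ZNF649, also on this list, had no such bin. It is listed between LINC01530 and LOC124904755, the placed neighbours of a pair of bins lower in TKO. The 10 include ZNF93, which binds LINE-1 elements and whose bin stood at 0.290%, 0.676% and 0 in TKO, against 1.26%, 1.51%, 0.104% and 1.16% in WT. Of 17 genes tied to early embryo or germ cells 3 had a bin (USP29, AURKC and ZNF534), and of 21 genes that encode no zinc finger protein also 3 (USP29, AURKC and PPP2R1A), in each case with 0 of 4 bins called, against the same shares of all bins. AURKC encodes a kinase of meiosis, and its bin stood at 91.7%, 90.9% and 92.2% in TKO, against 87.5%, 88.9%, 83.2% and 88.6% in WT.

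Most called differences had the size of a call on both strands. Every call could be read on the plus and the minus strand, and the difference passed 25 points on each of them in 11 of 11 lower and 11 of 13 higher bins at SC, in 9 of 10 and 12 of 14 at CME, and in 7 of 7 and 25 of 28 at CP. At CP the higher bins formed 22 single bins and 3 adjacent pairs, and the lower ones 3 single bins and 2 pairs. The largest adjusted p of a call between genotypes was 2.01e-11 (Fisher's exact test), which covers counting error only and is too small where 1 read spans several CpGs. When levels were corrected for unconverted cytosine, the number of calls between genotypes stayed within 1.5 times at each stage.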

How the data were processed

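Enhanced reduced representation bisulfite sequencing data of 7 libraries were analysed. As deposited, each line gives a cytosine with its coverage, which is a count of reads, and the percent of reads with C and with T, per the file headers; 100% of lines gave whole reads to within rounding, and the lowest coverage listed was 10. The build is hg19, per the submitters' processing notes; no source used here gives the aligner or methylation caller. Levels therefore depend on an alignment and a conversion rate that could not be examined here, apart from the mitochondrial reads.

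Both strands of a CpG were summed, CpGs with 10 or more reads in all 7 libraries were kept, and reads were summed in 1 kb bins of 5 or more CpGs. Each of 10 pairs of libraries was compared by Fisher's exact test (two-sided, Benjamini-Hochberg over 85087 bins), with a call at an adjusted p below 0.01 and 25 points or more. A z test compared differences between stages, and limma 3.58.1 (R 4.3.3) fitted genotype plus stage on the arcsine square root of the level, weighted by reads; the weights were added after tests on simulated data. There was 1 library per group, so these p-values and the 95% Wilson intervals cover counting error only, and they are too small where a read spans several CpGs or PCR copies were counted. The level of 0 at the ZSCAN5A promoter bin is given with the limit that 3 reads allow, and other levels of 0 are given without it. Other tools were Python 3.11.15, scipy 1.17.1 and statsmodels 0.14.6. No spread between cultures could be estimated.

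RefSeq promoter sequences (GRCh38.p14) were placed by CpG spacing, and the RefSeq gene table served for gene order only. Bins named are the largest called rises and falls of each comparison and interval, with others chosen after their values were seen. The intervals, members and gene lists were chosen with earlier results of these data known. The alternatives tried were other minimums of reads and CpGs, a size of 40 points, CpG means in place of summed reads, a correction for unconverted cytosine, bins shifted by 500 bases and, for limma, another scale, each stage left out and, added after seeing the data, no read weights.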

Additional observations from a re-analysis of the deposited data

Results flagged for a closer look

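Each value here is a change of the TKO minus WT difference between stages that passed the z test at an adjusted p below 0.01 and 25 points, over single libraries. Between CP and SC the difference was larger at CP in 13 cluster bins (2.87%) and smaller in 2 (0.442%), against 5.67% and 0.108% of all bins. Between CP and CME it was larger at CP in 13 (2.87%) and smaller in 1 (0.221%), against 5.67% and 0.0588% of all bins. Larger changes were thus a smaller share of the clusters than of all bins. The largest changes between CP and SC were 73.2 points between ZNF682 and ZNF430 (bin from 20748001), 62.5 points at the ZNF880 promoter and 55.3 points between ZNF430 and LOC105372331 (bin from 21657001). At ZNF880 the sign of the difference also turned, being -32.2 points at SC and 30.4 points at CP. The bin between ZNF765 and ZNF813 (from 53966001) changed by 27.8 points and the ZSCAN5A promoter bin at its other start (from 56879001) by 31.2 points. In the pair of bins between LINC01864 and ZNF787 (from 56618001 and from 56625001) the changes were 39.4 and 32.2 points, and there the level of WT CP, not that of TKO CP, differed from the earlier stages by over 25 points.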

How the results depend on the processing

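Of 156 counts of called cluster bins recomputed under another setting, 126 stayed within 1.5 times the reported count. With a size of 40 points in place of 25, TKO minus WT had 3 lower bins at SC, 6 higher and 2 lower at CME, and 16 higher and 0 lower at CP. Under the same size, WT CP minus WT CME had 0 lower, WT CM minus WT SC 0 higher and 0 lower, TKO CP minus TKO CME 4 higher, TKO CP minus TKO SC 5 higher, and the limma fit 0 lower; the change of the genotype difference had 4 larger and 0 smaller between CP and SC and 3 larger and 0 smaller between CP and CME. The lower calls at CP thus all lie between 25 and 40 points. With bins shifted by 500 bases, WT CP minus WT CME and WT CM minus WT SC had 4 lower each, WT CME minus WT SC, TKO CP minus TKO CME and TKO CP minus TKO SC 1 lower each, and the change of the genotype difference had 0 smaller between CP and SC, 2 smaller between CP and CME and 1 larger between CME and SC. With 10 CpGs a bin, WT CP minus WT CME, WT CM minus WT SC and both changes of the genotype difference at CP had 0 lower. With 20 reads a CpG the change between CP and SC had 1 smaller. Corrected for unconverted cytosine, WT CM minus WT SC had 2 higher, and with CpG means TKO CP minus TKO SC had 1 lower. Apart from the settings' own construction, the cause of these moves was not tested.

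The mean level of the clusters depends on which bins enter. With CpG means it was 54.3%, 54.7% and 56.7% in TKO SC, CME and CP, against 55.2%, 56.0%, 54.2% and 54.6% in WT at SC, CME, CP and CM. With 10 CpGs a bin it was 41.3%, 41.7% and 44.3% in TKO, against 42.4%, 42.9%, 41.2% and 41.4% in WT, and with 20 reads a CpG 49.2%, 49.5% and 51.6% in TKO, against 49.9%, 50.5%, 48.8% and 49.0% in WT. Shifted bins gave 53.9%, 54.3% and 56.5% in TKO, against 54.3%, 55.1%, 53.2% and 53.6% in WT, and the correction gave 54.6% in WT SC and 55.4% in WT CME. In the limma fit the counts stayed within 1.5 times on the logit scale (12 higher, 5 lower), without each stage (10 to 13 higher, 6 to 10 lower) and, added after seeing the data, with no read weights (14 higher, 8 lower).

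No paired analysis was possible because each group has 1 library, so that no replicate numbers pair samples; the limma fit pairs libraries by stage only. Depth limits bins of few CpGs most: the bin near USP29 had 70 reads in TKO CP. With single libraries, differences between cultures, and between the WT and TKO lines for reasons other than the knockout, cannot be told apart from genotype.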
